A study of Mus musculus with 6 samples.

Results

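The genes described here are 38 members of the G2 and mitosis programme of dividing cells, out of 15601 genes in a single-cell RNA count table from tumour-infiltrating CD8 T cells of mice. They were chosen by name, and all 38 were present in the table. Each gene was followed by the authors' deposited cluster number and by library, with cluster 3 set against cluster 5 and both against the remaining clusters, and then between the sexes. The members were compared with 36 S phase genes, 78 other mitosis and G2 genes, 16 inhibitors of the cell cycle or genes of quiescence, and 11 G1 cyclins, kinases and E2F genes.

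The cells came from wild-type C57BL/6 mice that received MB49 cells, a mouse urothelial carcinoma line, under the skin at 6 weeks of age, and tumours were taken on day 10. All groups share this strain, genotype, tumour line and time, and they differ by sex: 3 female and 3 male libraries, which the labels call biological replicates. Live cells that carried CD3 and CD8 and lacked CD4 were sorted and put into droplets for 3′ RNA sequencing with unique molecular identifiers (UMIs), so each count is a labelled transcript end. The table holds 26698 cells and 295211042 UMIs, in female libraries 2, 5 and 6 and male libraries 1, 3 and 4. The libraries held 2121 to 7156 cells, with medians of 6397.5 to 10114.5 UMIs per cell, the lowest in male libraries 4 and 1. Of the barcodes, 84 occurred under more than 1 library number, in 169 cells. Markers were as labelled in the clusters the results turn on: Cd8a stood at 559 ± 50.3 UMIs per 1000000 UMIs of those cells (CPM) in cluster 3 and 663 ± 52.7 CPM in cluster 5 (SD, n = 6 libraries), and Cd4 at 0.139 and 0.265 CPM. Of the markers of other cell types, 8 myeloid genes summed to 19.0 CPM (14.6 to 26.7) in cluster 3 and 21.6 CPM (15.2 to 34.4) in cluster 5. The 6 natural killer and innate-like genes summed to 210 CPM (168 to 264) in cluster 3, 224 CPM (168 to 295) in cluster 5 and 263 CPM (161 to 345) in the other clusters without cluster 2, and their part in the results was not tested. Cluster 2 had Cd8b1 at 119 ± 43.4 CPM and Klrb1c, a natural killer cell receptor, at 102 ± 26.0 CPM, and it was left out of the sex comparisons.

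A dividing cell copies its DNA in S phase, prepares for division in G2 and separates its chromosomes in mitosis. Cyclins A and B switch on the kinase Cdk1, Aurora and Polo kinases build the spindle and watch over chromosome attachment, and the anaphase-promoting complex then destroys cyclins and other proteins so that chromosomes part and the cell divides. CD8 T cells that have met their antigen divide quickly, and in tumours such cells sit beside exhausted cells that divide little. Many of these genes are switched on together late in the cycle. Their promoters often carry a CHR element, bound by the MuvB complex with B-Myb and FoxM1, and CCAAT boxes, bound by NF-Y.

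The promoters of 34 members, all but Ccna2, Aurkb, Kif20a and Tpx2, were found in a RefSeq-based table for GRCm38.p6, the patched form of mm10. Each window runs from 250 bases before to 50 bases after a start site listed for the gene. That site need not be the first base of the gene's annotated span. Of the 36 member windows, 33 had the 20 bases after the start site in a transcript of the gene on the same strand. A gene counts as holding a motif if any of its windows does. The CHR element was searched as TTTGAA and the CCAAT box as CCAAT, each on both strands. Windows with TTTGAA were found for 25 of 34 members (73.5%), against 14.7% of the 11260 genes of the count table that had a window. CCAAT was found for 26 members (76.5%), against 42.4%, and at 2 or more places for 20 members (58.8%), against 15.8%. Both motifs together were found for 21 members (61.8%), against 5.96%. Among the 27 S phase genes with a window, 4 held TTTGAA (14.8%) and 19 held CCAAT (70.4%). The S phase promoters more often held an E2F site, searched as TTTGGCGC or TTTCGCGC on both strands, in 8 of 27 genes (29.6%). It was found for 1 of 34 members (2.94%) and for 1.69% of the 11260 genes of the count table that had a window. Such matches are letters in a window, and binding was not measured.

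The 4 members with both motifs that stood highest in cluster 3 are printed 5′ to 3′ on the strand of the gene, with CHR and CCAAT matches of either strand in capitals, followed by Birc5, which holds neither and is shown for contrast. The Hmgb2 window lies at chr8:57511593-57511892 on the plus strand, that of Top2a at chr11:99024140-99024439 on the minus strand, and that of Mki67 at chr7:135716330-135716629 on the minus strand. The Cenpa window lies at chr5:30666636-30666935 and that of Birc5 at chr11:117848987-117849286, both on the plus strand.
Hmgb2: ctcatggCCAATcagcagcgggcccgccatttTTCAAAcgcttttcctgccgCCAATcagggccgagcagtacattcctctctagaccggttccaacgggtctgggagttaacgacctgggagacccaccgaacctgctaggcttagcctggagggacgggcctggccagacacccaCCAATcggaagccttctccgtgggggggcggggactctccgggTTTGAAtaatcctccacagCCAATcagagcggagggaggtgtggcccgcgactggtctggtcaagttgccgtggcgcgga
Top2a: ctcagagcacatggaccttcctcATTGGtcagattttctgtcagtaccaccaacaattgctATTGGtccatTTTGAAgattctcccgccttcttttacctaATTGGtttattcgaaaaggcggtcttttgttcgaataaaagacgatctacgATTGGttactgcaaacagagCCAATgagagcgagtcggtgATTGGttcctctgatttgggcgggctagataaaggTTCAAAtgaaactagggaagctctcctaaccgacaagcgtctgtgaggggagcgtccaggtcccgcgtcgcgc
Mki67: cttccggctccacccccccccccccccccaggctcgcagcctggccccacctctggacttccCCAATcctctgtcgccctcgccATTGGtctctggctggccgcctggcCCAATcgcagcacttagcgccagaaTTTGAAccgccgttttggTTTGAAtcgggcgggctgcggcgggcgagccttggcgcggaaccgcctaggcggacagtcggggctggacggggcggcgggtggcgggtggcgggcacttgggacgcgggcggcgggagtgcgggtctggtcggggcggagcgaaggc
Cenpa: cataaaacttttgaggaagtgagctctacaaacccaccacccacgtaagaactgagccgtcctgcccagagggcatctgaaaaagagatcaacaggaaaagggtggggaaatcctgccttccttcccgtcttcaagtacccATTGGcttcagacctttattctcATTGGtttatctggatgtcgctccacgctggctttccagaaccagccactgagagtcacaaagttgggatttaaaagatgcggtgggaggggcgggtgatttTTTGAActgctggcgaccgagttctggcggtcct
Birc5: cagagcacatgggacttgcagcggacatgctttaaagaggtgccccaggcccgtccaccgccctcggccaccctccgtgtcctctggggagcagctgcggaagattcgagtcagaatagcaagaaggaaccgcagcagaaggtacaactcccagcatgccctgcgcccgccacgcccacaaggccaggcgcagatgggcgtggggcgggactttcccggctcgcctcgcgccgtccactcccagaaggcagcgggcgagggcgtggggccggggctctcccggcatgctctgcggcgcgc

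The Top2a window holds 2 CHR and 6 CCAAT matches, that of Hmgb2 holds 2 and 4, that of Mki67 2 and 3, and that of Cenpa 1 and 2. The CHR match of Cenpa starts 16 bases after the start site, and the nearest match of Top2a starts 23 bases before it.

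The members were concentrated in cluster 3. That cluster held 9.21% of the cells and 22.9% of all UMIs, and 70.0% of the members' UMIs. Cluster 5 held 8.67% of the cells, 16.4% of all UMIs and 15% of the members' UMIs. The 38 genes summed to 8781 ± 383 CPM in cluster 3, with 8187 in the lowest library and 9253 in the highest. In cluster 5 they summed to 2675 ± 205 CPM (2366 to 2936), and over all cells outside clusters 3 and 5 to 712 ± 49.9 CPM (636 to 755). The ranges of the 3 sets of cells did not overlap. Per cell, the members gave 249 ± 33.2 UMIs in cluster 3 and 57.6 ± 8.49 in cluster 5. The clusters were made from the expression of the same cells, so differences between them are given as a description without a test.

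**Figure D1:**
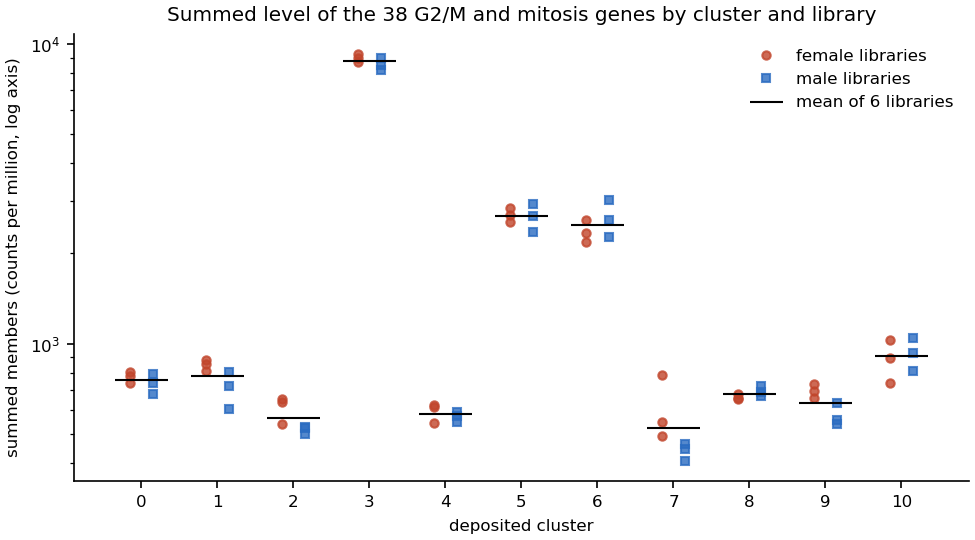
Summed level of the 38 genes (CPM, log axis) in each deposited cluster, with 1 point per library (circles female, squares male) and a line at the mean of 6 libraries. Cluster 3 stands at 8781 CPM, clusters 5 and 6 at 2675 and 2497 CPM, and no library of the other clusters is above 1047 CPM.

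Set gene by gene within each library, all 38 members were higher in cluster 3 than in cluster 5 on average, and 36 of them over 2-fold, where 2.04% of the 8622 genes with a mean of at least 5 CPM passed that size. The median log2 ratio of cluster 3 to 5, with 1 CPM added, was 2.28 for the members and -0.01 for all these genes. Against the cells outside both clusters, 38 of 38 members were over 2-fold higher in cluster 3 (6.19% of all genes) and 36 of 38 in cluster 5 (3.94% of all genes), with median log2 ratios of 4.53 and 2.06. The S phase genes set clusters 3 and 5 apart far less. Their median log2 ratio of cluster 3 to 5 was 0.39, with 27 of 36 higher in cluster 3, while they stood 2.67 and 2.42 above the other cells in clusters 3 and 5. Summed members were 2.00 ± 0.13 times the summed S phase genes in cluster 3, and 0.79 ± 0.044 times in cluster 5.

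**Figure D2:**
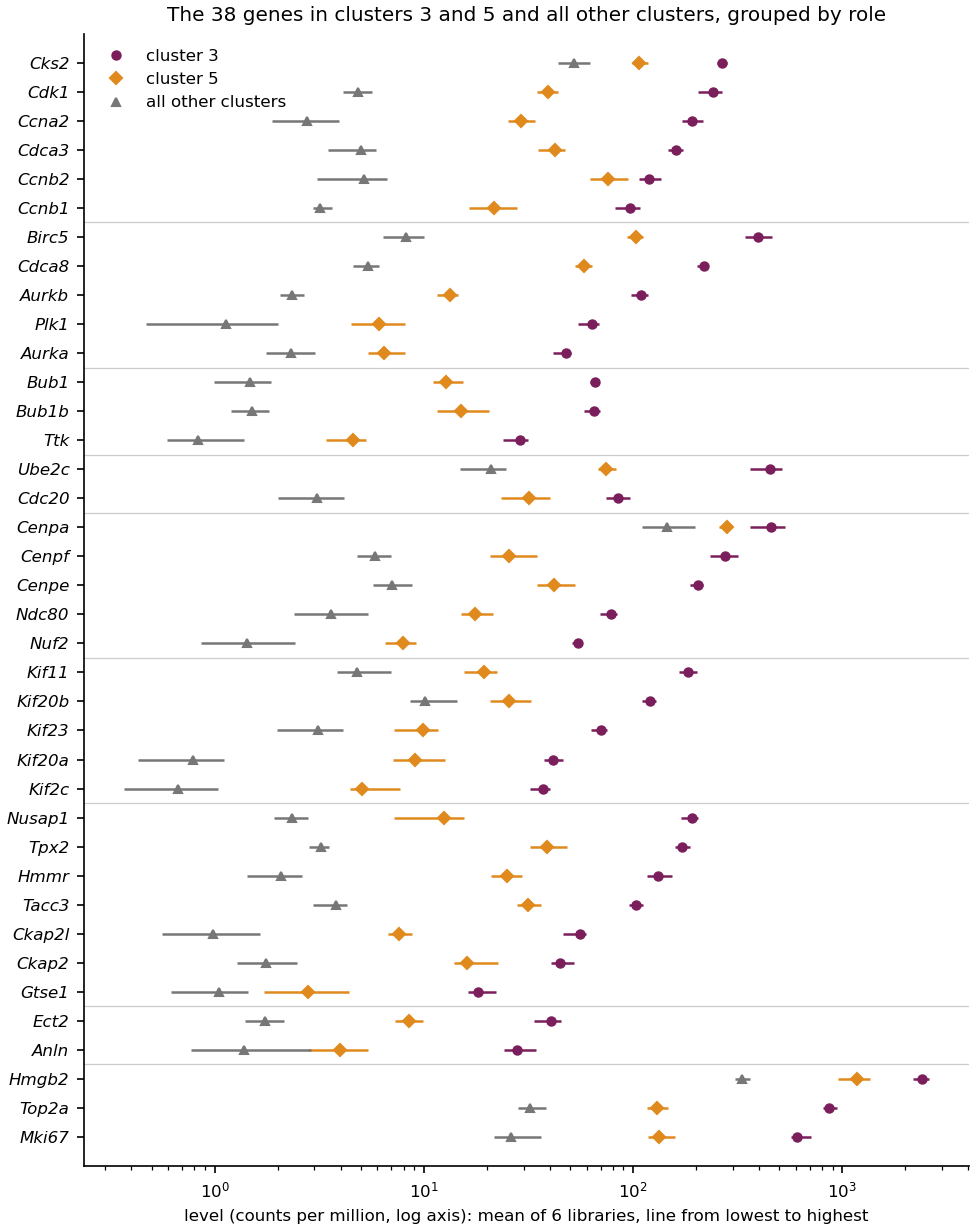
Level of each of the 38 genes (CPM, log axis) in cluster 3 (circles), cluster 5 (diamonds) and all other clusters (triangles), grouped by role, as the mean of 6 libraries with a line from the lowest to the highest library. All 38 circles lie to the right of their diamonds, with the smallest gaps for Ccnb2 and Cenpa and the largest for Nusap1.

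Among the genes of mitotic entry, Cdk1, the kinase that drives cells into mitosis, stood in cluster 3 at 263, 265 and 205 CPM in female libraries 2, 5 and 6 and at 220, 254 and 239 CPM in male libraries 1, 3 and 4. In cluster 5 it stood at 41.9, 43.9 and 35.5 CPM in the females and 39.4, 34.6 and 40.5 CPM in the males. Every library of cluster 3 lay above every library of cluster 5, and the ratio of the means was 6.14. Ccna2, the cyclin A that partners Cdk1 and Cdk2, stood at 192 ± 15.3 CPM in cluster 3 and 29.2 ± 3.13 CPM in cluster 5. Ccnb1, the main mitotic cyclin B, stood at 96.4 ± 10.8 and 21.6 ± 4.05 CPM.

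The second cyclin B, Ccnb2, differed least of the 38 genes. It stood in cluster 3 at 107, 136 and 117 CPM in female libraries 2, 5 and 6 and at 107, 126 and 122 CPM in male libraries 1, 3 and 4. The values in cluster 5 were 69.8, 69.7 and 94.5 CPM in the females and 75.2, 81.7 and 62.6 CPM in the males. The ranges did not overlap, and the ratio of the means was 1.58, against 4.46 for Ccnb1. Against the cells outside both clusters, at 5.17 CPM, Ccnb2 had the highest log2 ratio of all members in cluster 5, 3.90. Cks2, a small subunit that binds Cdk1, stood at 266 ± 11.6 CPM in cluster 3, 107 ± 6.59 CPM in cluster 5 and 52.4 CPM in the other cells. Cdca3, which helps destroy the Cdk1 inhibitor Wee1, stood at 160 ± 10.6 and 42.4 ± 4.08 CPM in clusters 3 and 5.

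The mitotic kinases separated the clusters more. Plk1, the Polo kinase of spindle assembly and mitotic exit, stood in cluster 3 at 61.8, 66.1 and 68.7 CPM in female libraries 2, 5 and 6 and at 62.3, 66.4 and 54.9 CPM in male libraries 1, 3 and 4. Its cluster 5 levels were 6.46, 5.89 and 5.20 CPM in the females and 8.17, 4.51 and 6.22 CPM in the males, so the ratio of the means was 10.4. Aurkb, the Aurora kinase of the chromosomal passenger complex, stood at 109 ± 7.07 and 13.3 ± 1.25 CPM, and Aurka, the centrosomal Aurora kinase, at 47.9 ± 3.48 and 6.46 ± 1.00 CPM. The passenger complex partners of Aurkb were closer between the clusters: Birc5 (survivin) stood at 397 ± 38.4 and 104 ± 6.53 CPM, and Cdca8 (borealin) at 218 ± 11.2 and 58.6 ± 3.93 CPM. Their ratios of 3.83 and 3.73 compare with 8.15 for Aurkb.

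The 3 spindle checkpoint kinases, which hold cells before anaphase until chromosomes are attached, had log2 ratios of 2.15 to 2.67. Bub1 stood at 65.9 ± 2.76 CPM in cluster 3 and 12.8 ± 1.39 CPM in cluster 5, Bub1b at 65.3 ± 4.14 and 15 ± 3.14 CPM, and Ttk at 28.8 ± 2.82 and 4.57 ± 0.793 CPM. Of the 2 partners of the anaphase-promoting complex, Ube2c, its ubiquitin-conjugating enzyme, stood at 451 ± 50.9 and 74.3 ± 5.21 CPM. Cdc20, its activator in anaphase, stood in cluster 3 at 83.1, 96.7 and 74.3 CPM in the females and 78.9, 85.3 and 91.8 CPM in the males. In cluster 5 it stood at 31.7, 23.3 and 28.3 CPM in the females and 40.0, 35.8 and 31.2 CPM in the males. Its ratio of 2.68 was the fifth smallest of the 38.

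The centromere and kinetochore genes ranged widely. Cenpf, a large protein of the outer kinetochore, stood in cluster 3 at 274, 318 and 257 CPM in female libraries 2, 5 and 6 and at 233, 280 and 283 CPM in male libraries 1, 3 and 4. Cluster 5 held 22.7, 28.2 and 20.8 CPM in the females and 35, 24.1 and 23.1 CPM in the males, a ratio of 10.7. Cenpa, the histone H3 variant that marks centromeres, stood at 459 ± 67.9 CPM in cluster 3, 282 ± 16.5 CPM in cluster 5 and 145 CPM outside both, a ratio of 1.63 between the clusters. Cenpa was also present outside these clusters, and in cluster 0 it stood at 227 ± 39.9 CPM with a UMI in 75.9% of cells, where Cdk1 had a UMI in 3.52% of cells. The remaining kinetochore members stood in cluster 3 and 5 at 204 ± 10.1 and 41.7 ± 6.39 CPM for the kinesin-like Cenpe, 78.3 ± 4.94 and 17.6 ± 2.76 CPM for Ndc80, and 54.5 ± 1.99 and 8.00 ± 1.10 CPM for Nuf2, which pairs with Ndc80.

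The 5 kinesin motors had log2 ratios of 2.23 to 3.24. Kif11, which pushes spindle poles apart, stood at 182 ± 14.0 and 19.4 ± 2.55 CPM in clusters 3 and 5, and Kif23, a motor of the central spindle, at 70.5 ± 4.85 and 9.94 ± 1.83 CPM. Kif20a, needed for cytokinesis, stood at 41.4 ± 3.34 and 9.03 ± 2.19 CPM, Kif20b at 121 ± 8.77 and 25.6 ± 3.81 CPM, and Kif2c, which takes microtubules apart at centromeres, at 37.0 ± 2.95 and 5.08 ± 1.28 CPM.

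Among the spindle genes, Nusap1, which bundles spindle microtubules, had the highest log2 ratio of cluster 3 to 5 of all members, 4.0 ± 0.51. It stood in cluster 3 at 193, 203 and 200 CPM in female libraries 2, 5 and 6 and at 170, 203 and 184 CPM in male libraries 1, 3 and 4. Levels in cluster 5 were 12.1, 14.8 and 7.23 CPM in the females and 15.5, 9.47 and 15.6 CPM in the males. The lowest library of cluster 3 was thus far above the highest of cluster 5. Ckap2 and Tacc3, both spindle-associated, were closer, at 44.8 ± 4.13 against 16.1 ± 3.26 CPM and 103 ± 5.54 against 31.4 ± 3.31 CPM. Tpx2, which activates Aurora A on the spindle, stood at 171 ± 9.62 and 38.7 ± 5.94 CPM, Hmmr at 132 ± 13.1 and 25.0 ± 2.98 CPM, Ckap2l at 56.0 ± 5.05 and 7.63 ± 0.834 CPM, and Gtse1 at 18.1 ± 2.24 and 2.80 ± 1.12 CPM. The 2 genes of cytokinesis, Anln (anillin) and Ect2, which activates the small GTPase RhoA at the cleavage site, stood at 27.8 ± 3.44 and 3.97 ± 1.19 CPM and at 40.4 ± 5.00 and 8.52 ± 1.14 CPM.

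Among the 3 genes of chromosome structure, Top2a, the topoisomerase that untangles sister chromatids, stood in cluster 3 at 840, 847 and 941 CPM in female libraries 2, 5 and 6 and at 824, 913 and 807 CPM in male libraries 1, 3 and 4. In cluster 5 it stood at 126, 140 and 117 CPM in the females and 147, 123 and 125 CPM in the males. Mki67, the Ki-67 protein that coats mitotic chromosomes and is used as a mark of cycling cells, stood at 610 ± 49.8 CPM in cluster 3 and 133 ± 18 CPM in cluster 5. Hmgb2, a chromatin protein, stood at 2395 ± 131 and 1180 ± 151 CPM, and at 333 CPM in the cells outside both. Its ratio of 2.03 between the clusters was the third smallest, and without it the other 37 members summed to 6386 ± 332 CPM in cluster 3 and 1495 ± 70.3 CPM in cluster 5.

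The other cell cycle lists were set against the same 2 clusters. Of 78 further mitosis and G2 genes, 77 were higher in cluster 3 than 5, with a median log2 ratio of 1.74. Among the highest were Ccnf (3.6), Prc1 (3.46) and Gas2l3 (3.27), and Pttg1, the securin that guards sister chromatid cohesion, was the single gene below 0 (-0.12). Of the S phase genes, E2f8 (2.47), Rrm2 (1.97), Rad51ap1 (1.56) and Brip1 (1.42) were highest in cluster 3 relative to 5. Ung (-1.21), Mcm2 (-0.47), Mcm3 (-0.25) and Mcm6 (-0.23), of which the last 3 encode parts of the replicative helicase, were higher in cluster 5, each in 6 of 6 libraries. Among the inhibitors, Cdkn2c, which blocks Cdk4 and Cdk6, stood at 54.1 ± 5.64 CPM in cluster 3 and 11.8 ± 1.38 CPM in cluster 5, and Cdkn2d, of the same family, at 126 ± 17.3 and 43.0 ± 4.24 CPM. The antiproliferative gene Btg1 stood at 481 and 528 CPM in clusters 3 and 5 and at 1002 CPM outside both. The G1 list had a median log2 ratio of 0.00, with E2f2 highest (1.01) and the D cyclin Ccnd2 lowest (-0.78).

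Across the 66 sums of 11 clusters by 6 libraries, the genes outside the members whose log2 CPM followed the summed members most closely were Smc2 (r = 0.954), Ncapg (0.947), Nek2 (0.945), E2f8 (0.944), Fbxo5 (0.944), Dlgap5 (0.943), 2810417H13Rik (0.943), Rrm2 (0.940), Cep55 (0.938) and Stil (0.935). Smc2 and Ncapg encode subunits of condensin, and Fbxo5 an inhibitor of the anaphase-promoting complex. The sums share libraries, and clusters differ in depth, so these correlations describe likeness of pattern and carry no p.

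Counts of cells use the same UMIs and clusters as the summed levels, and describe how often members and S phase genes were found in the same cell. Each cell was thinned to 2000 UMIs, since the median depth was 23987.5 UMIs in cluster 3, 18351 in cluster 5 and at most 13987 in the other clusters, and 2383 shallower cells were left out. Of the thinned cells, 90% ± 2.38 in cluster 3 and 23.8% ± 2.70 in cluster 5 had a UMI of at least 5 members (SD, n = 6 libraries), with library ranges of 87.0% to 93.3% and 20.7% to 27.7%. Unthinned, the shares were 100% and 85.5%. In clusters 0, 1, 4, 7, 8 and 9 the mean thinned share was 0.24% to 0.84%, and in cluster 2 it was 0 of 3071 cells, which allows a share of up to 0.0977% by counting error. The count of 5 is a point on a range: 579 of the 24315 thinned cells had 4 members and 397 had 5. In cluster 3 the median cell held 16.8 member UMIs of 2000 (mean of the library medians) and in cluster 5 it held 3.67.

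In cluster 3, 66.7% ± 2.63 of cells had at least 5 members and also at least 5 S phase genes, and 23.3% ± 1.69 had at least 5 members alone. In cluster 5, 47.6% ± 2.51 had at least 5 S phase genes alone, 14.1% ± 2.03 members alone, 9.65% ± 1.67 both and 28.7% ± 3.33 neither. The thinned cells with at least 5 members lay mostly in cluster 3 (70.9% ± 2.78 of them) and cluster 5 (17.3% ± 1.10), and 11.8% ± 2.47 lay elsewhere. Thinning left out 1249 of 2034 cells of cluster 6 and 843 of 1137 of cluster 10, but 6 of cluster 3 and 8 of cluster 5. These shares therefore cover only the cells kept. Of the 294 cells kept in cluster 10, 3.65% ± 2.67 had at least 5 members. Doublets were not removed, and cells of clusters 3 and 5 had the most UMIs. Their part in the cells with both gene sets was not tested.

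**Figure D3:**
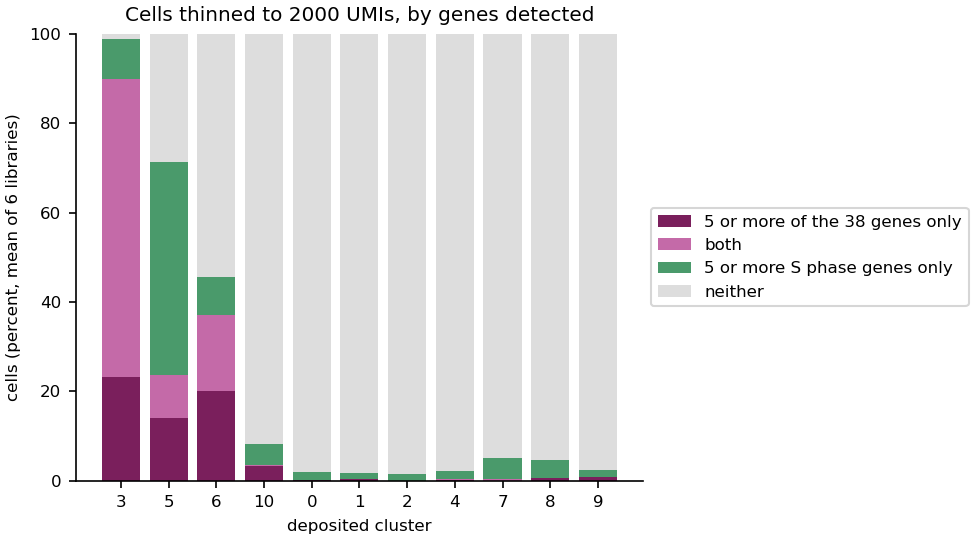
Cells thinned to 2000 UMIs, divided by whether they had a UMI of at least 5 of the 38 genes, of at least 5 of 36 S phase genes, of both or of neither, as the mean percent of 6 libraries in each deposited cluster. Cells with both make up 66.7% of cluster 3, and cells with S phase genes alone make up 47.6% of cluster 5.

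Cells were also split by their S phase genes, which uses none of the members. In both clusters most members were higher in cells with few S phase genes. Summed members there stood at 3361 ± 428 CPM, against 2370 ± 147 CPM with 5 or more, in cluster 5. In cluster 3 they stood at 11805 ± 898 against 8692 ± 430 CPM. In cluster 5, 987 thinned cells had fewer than 5 S phase genes and 1321 had 5 or more. Cells with few S phase genes held more Cenpf (48.6 ± 15.1 against 12 ± 6.90 CPM, SD, n = 6 libraries), Hmmr (37.6 ± 8.92 against 10.8 ± 5.53 CPM), Ccnb2 (125 ± 18.3 against 43.1 ± 13.5 CPM) and Cdc20 (61.0 ± 14 against 22.7 ± 11.9 CPM). Cells with 5 or more held more Top2a (174 ± 29.2 against 71.9 ± 15.3 CPM). The libraries of the 2 sets of cells did not overlap for these 5 genes. Nor did they overlap for Birc5, Tpx2, Ube2c, Cenpe, Cenpa, Cdca3 and Cdca8, all higher in cells with few S phase genes. Top2a was the only member without overlap in the other direction. The share of all genes without overlap was not computed. The libraries overlapped for Cdk1 (44.3 ± 11.1 CPM with 5 or more against 23.1 ± 6.54 CPM), Aurkb (15.1 ± 7.55 against 5.86 ± 5.75 CPM) and Kif20a (4.51 ± 1.29 against 18.3 ± 14.2 CPM). Ttk (5.68 ± 5.65 against 1.73 ± 2.84 CPM) and Anln (4.49 ± 3.14 against 1.5 ± 1.73 CPM) rested on few UMIs, with libraries at 0 in both sets, and no direction was read from them. In cluster 3, with 613 and 1841 such cells, the genes highest in cells with few S phase genes were Cdc20 (174 against 60.1 CPM), Ube2c (940 against 348 CPM), Ccnb1 (183 against 74.7 CPM) and Cenpf (530 against 224 CPM). Top2a there differed little (991 against 965 CPM), and Ndc80 stood at 73.2 CPM in cells with few S phase genes and 93.0 CPM in cells with 5 or more.

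**Figure D4:**
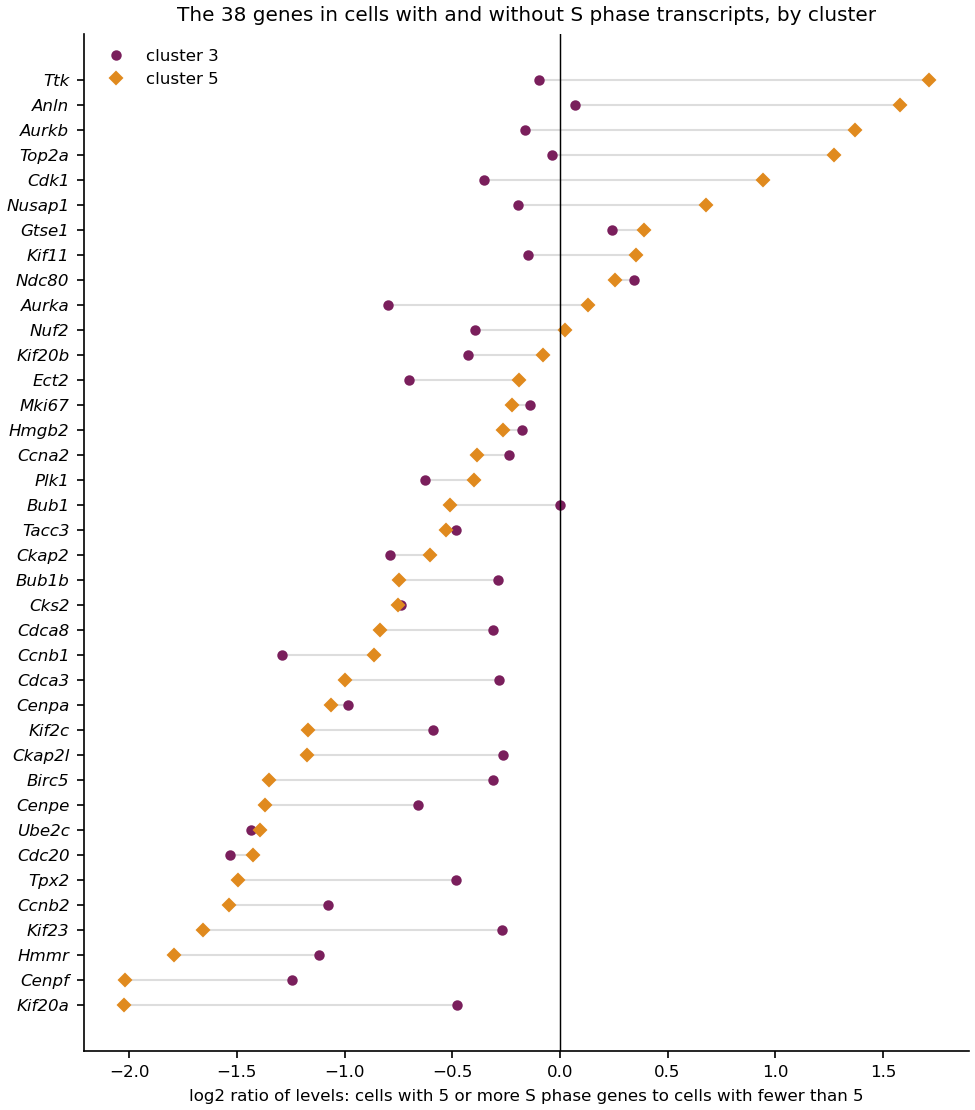
Log2 ratio of the level of each of the 38 genes in thinned cells with 5 or more S phase genes to that in cells with fewer than 5, in cluster 3 (circles) and cluster 5 (diamonds), from the means of 6 libraries and ordered by cluster 5. Kif20a, Cenpf and Hmmr lie lowest and Aurkb, Anln and Ttk highest in cluster 5, where the libraries of the 2 sets of cells overlap for Kif20a, Aurkb, Anln and Ttk, and the circles span a narrower range.

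The balance of late and G2 members depended on Cenpa. Late and G2 are names of 2 lists here, and the phase in which each gene acts was not measured. The late list held 10 members (Ccnb1, Ccnb2, Plk1, Cdc20, Cenpa, Aurka, Kif20a, Cenpe, Cenpf and Hmmr). The G2 list held 9 (Ccna2, Cdk1, Top2a, Kif11, Kif20b, Ndc80, Nuf2, Tacc3 and Bub1b). The ratio of the late to the G2 sum was 0.80 ± 0.067 in cluster 3, 1.67 ± 0.10 in cluster 5 and 2.74 ± 0.68 in the cells outside both. Without Cenpa, an omission chosen after the data were seen, it was 0.56 ± 0.033, 0.77 ± 0.059 and 0.47 ± 0.039. The ranges of clusters 3 and 5 did not overlap either way (0.521 to 0.602 and 0.702 to 0.840 without Cenpa), while the other cells moved from the highest place to the lowest. Top2a gave 862 of the 1900 CPM of the G2 sum in cluster 3 and 130 of 315 CPM in cluster 5. Of the late sum, with Cenpa, Ccnb2 gave 119 of 1522 CPM in cluster 3 and 75.6 of 525 CPM in cluster 5. Cenpa gave 459 and 282 CPM of the same sums. The ratio without Ccnb2 or without Top2a was not computed, so how far it rests on these genes is not known.

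Cluster 6 was the third place where members were found. Its cells were shallow, with a median of 1742 UMIs and 30% mitochondrial UMIs, and the members summed to 2497 ± 302 CPM there. Against cluster 5, 23 of 38 members were higher in cluster 6 and 15 lower, with a median log2 ratio of 0.34, where all 8622 genes had a median of -0.26 and the S phase genes -0.88. Nuf2 (2.07), Cenpf (2.01), Top2a (1.67) and Mki67 (1.56) were highest in cluster 6 relative to cluster 5, and Hmgb2 (-1.48), Cdc20 (-1.23), Cks2 (-1.13) and Ccnb2 (-1.05) lowest. Mki67 stood in cluster 6 at 386, 348 and 418 CPM in the females and 408, 367 and 435 CPM in the males, and every library lay above every library of cluster 5. Of the 785 cells of 2034 that had 2000 UMIs, 37.0% ± 5.28 had at least 5 members. Against cluster 3, the log2 ratio of cluster 6 was higher for members with longer transcripts (Pearson r = 0.41 with log2 length, 38 members). Nuf2, highest there too, has 2405 bases, below the members' median of 2932. The part of transcript length, the mitochondrial share and the low depth in these levels was not tested.

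Male and female libraries were the 2 groups of the design, and the sums over all CD8 T cells outside cluster 2 were compared with edgeR's quasi-likelihood test, coded male minus female. No member passed an adjusted p of 0.05, where 0.0902% of the 12194 genes tested did. At an unadjusted p under 0.05 there were 14 members (36.8%), all lower in males, where 8.36% of all genes tested were under it, and DESeq2 and limma-voom called 0. That count was 4 without male library 1, 5 without male library 4 and 21 without male library 3, and 10 to 13 without each female library. All 38 members were lower in males, by a median log2 difference of -0.21 (-0.42 to -0.05), where 48.8% of all genes were lower and the median of all genes was 0.00. With DESeq2's size factors all 38 were still lower, and in cells thinned to 2000 UMIs 36 of 38 were. In 20 members every male library lay below every female library, as it did in 6.09% of all genes tested. In such sums, fewer dividing cells and less RNA per dividing cell cannot be told apart.

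The smallest p belonged to Ect2, which stood at 14.9, 13.6 and 15.1 CPM in female libraries 2, 5 and 6 and at 10.1, 11 and 11.4 CPM in male libraries 1, 3 and 4. The sexes did not overlap, and the log2 difference was -0.42 ± 0.10 (SE, adjusted p = 0.219, edgeR). Kif11 stood at 53.2, 56.7 and 64.4 CPM in the females and 42.8, 48.9 and 47.3 CPM in the males, with a log2 difference of -0.32 ± 0.087 (adjusted p = 0.314, edgeR). It was the single member called under any alternative, with an adjusted p of 0.0489 in cells thinned to 2000 UMIs. Tpx2 stood at 55.8, 56.5 and 57.5 CPM in the females and 44.5, 48.0 and 47.8 CPM in the males, again without overlap. Cdc20 and Ndc80 differed least, with log2 differences of -0.06 and -0.05, and their libraries overlapped.

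The other 78 mitosis and G2 genes were lower in males in 71 cases, by a median of -0.18, with 0 called, and 16 at an unadjusted p under 0.05 (20.5%, beside 8.36% of all genes), 0 of these higher in males. Those with the smallest p were Prc1 (-0.30), Gas2l3 (-0.46), Kif18b (-0.43) and Depdc1a (-0.27).

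The share of cells in cluster 3 is given by library, without a test. It was 12.4%, 11.7% and 12.1% of the CD8 T cells in female libraries 2, 5 and 6 and 8.57%, 10.4% and 9.65% in male libraries 1, 3 and 4. For cluster 5 the shares were 10.7%, 11.2% and 10.9% in the females and 7.90%, 9.90% and 9.68% in the males. Both clusters took a lower share of every male library than of any female library. Such a separation of the sexes was not particular to these clusters. Of all cells of each library, cluster 2 included, clusters 1, 7 and 9 took a higher share of every male library than of any female library. The shares of a library depend on each other, since a higher share in some clusters leaves less for the rest. When cells were drawn so that every library had the same cluster mix, the members' median log2 difference was -0.03, with 12 higher and 26 lower in males and 1 at an unadjusted p under 0.05. Before this draw the summed members stood at 3237, 3247 and 3444 CPM in the female and 2676, 3047 and 2889 CPM in the male libraries. Cluster 3 held 70.0% of the members' UMIs and was made from the same expression. The draw was made only once, and the cause of the difference was not tested.

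Within the clusters the members' medians lay nearer 0, and whether this differs from the sums over all cells was not tested. In cluster 3, 0 of 38 members were called (0.142% of 10534 genes were), 2 at an unadjusted p under 0.05 (5.26%, beside 5.48% of all genes), and 0 by DESeq2. There, 35 members were lower in males (24 without male library 1), with a median log2 difference of -0.08 beside 0.00 for all genes. In cluster 5, 0 were called (0.0979% of 10212 genes), 2 at an unadjusted p under 0.05 (3.99% of all genes) and 0 by DESeq2, with 21 higher and 17 lower in males and a median of 0.01, which fell below 0 on leaving out male library 1 (-0.07), male library 3 (-0.0048) or female library 6 (-0.03). In clusters 3 and 5 together 0 were called (0.108%), 4 at an unadjusted p under 0.05 (10.5%, beside 4.59% of all genes) and 0 by DESeq2, and 34 were lower, with a median of -0.10. In the CD8 T cells outside clusters 2, 3 and 5, 0 were called (0.095%), 2 at an unadjusted p under 0.05 (5.26%, beside 10.2% of all genes) and 0 by DESeq2, and 24 were higher in males, with a median of 0.06, which turned to -0.04 without female library 2. The S phase genes had median log2 differences of -0.09 over all CD8 T cells, 0.02 in cluster 3 and -0.04 in cluster 5. In each of these sets 0 of 36 were called and 0 had an unadjusted p under 0.05, and 31 of 36 were lower in males over all CD8 T cells. Outside clusters 2, 3 and 5, 26 of the 36 were higher in males and 10 lower, with a median of 0.07 and 0 called. There 6 had an unadjusted p under 0.05 (16.7%, beside 10.2% of all genes), all of them higher in males.

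**Figure D5:**
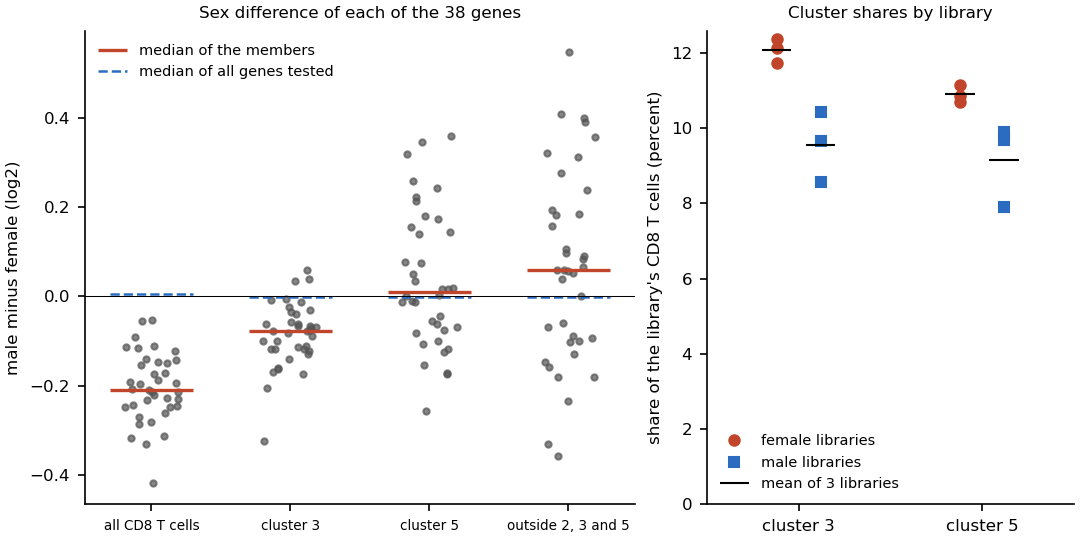
Left, the log2 difference between the sexes (male minus female) of each of the 38 genes in 4 sets of cells, with the members' median (solid line) and that of all genes tested (dashed line). Right, the share of each library's CD8 T cells in clusters 3 and 5 with the mean of 3 libraries per sex. The members' medians are -0.21, -0.08, 0.01 and 0.06 from left to right, and the male libraries lie below the female ones in both clusters.

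Whether the sex difference itself differed between clusters 5 and 3 was tested as an interaction with the library as a block. No member passed (0.0549% of 10937 genes did), 2 had an unadjusted p under 0.05 (5.26%, beside 5.59% of all genes), and DESeq2 called 0. That count was 11 without male library 4 and 8 without male library 3, and the members' median of 0.10 turned to -0.03 without male library 1. The 2 were Ccnb1, with a log2 difference of 0.46 ± 0.14 (SE, adjusted p = 0.538, edgeR), and Kif20b, with 0.31 ± 0.10 (adjusted p = 0.549, edgeR). Ccnb1 stood in cluster 3 at 103, 108 and 83.5 CPM in the females and 82.4, 103 and 98.7 CPM in the males, which overlapped. In cluster 5 it stood at 20.2, 19.0 and 16.5 CPM in the females and 27.8, 24.7 and 21.4 CPM in the males, where every male library was above every female library. In cluster 5 the sexes did not overlap in 2 of the 38 members, counting both directions. The share of all genes without overlap there was not computed, so nothing particular to Ccnb1 is read from this.

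The share of thinned cells with at least 5 members was 16.4%, 16.4% and 18.1% of the CD8 T cells in female libraries 2, 5 and 6 and 12.4%, 14.8% and 13.0% in male libraries 1, 3 and 4. Every male library was below every female library, and the exact two-sided permutation test gave p = 0.10, the smallest that 3 against 3 libraries allow (adjusted p = 0.50 over 5 sets of cells). Within cluster 3 the shares were 89.9% ± 3.16 in females and 90% ± 2.03 in males (exact permutation p = 1.00), and within cluster 5 they were 24.5% ± 3.05 and 23.0% ± 2.71 (exact permutation p = 0.60). Outside clusters 2, 3 and 5 they were 2.71% ± 0.651 and 1.97% ± 0.456 (exact permutation p = 0.20), and in cluster 6 they were 35.1% ± 5.36 and 39.0% ± 5.46 (exact permutation p = 0.50).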

How the data were processed

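The deposited data are a table of raw UMI counts per gene and cell and a cell table with sex, cluster number and genes per cell. Per the submitters' processing notes, Cell Ranger, Seurat and mm10 were used. For their versions and settings, for doublets and for reads shared with pseudogenes, the handling is not given in the sources used here. The unit of the authors' deposited matrix is counts, checked against the UMI totals of all 26698 cells. The number that ends a cell name was taken as the library, and the sex came from the cell table. Which labelled replicate a library number belongs to could not be worked out. No doublets were removed, and cells were neither filtered nor clustered again.

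Counts were summed per library and cluster and given as CPM, meaning UMIs per 1000000 UMIs of those cells, with the SD over 6 libraries. Ratios over all genes used 1 CPM added and genes with a mean of at least 5 CPM, while the values given for single members and for the sums had nothing added. Library sums held 25562319 to 66105318 UMIs. Sex was tested with edgeR 4.0.16 (filterByExpr, TMM, robust quasi-likelihood, Benjamini-Hochberg over all genes tested) in R 4.3.3, at an adjusted p of 0.05, and shares of cells with exact permutation tests in scipy 1.17.1. The p-values measure the spread between libraries. DESeq2 1.42.0, limma 3.58.1, other filters, other thinning and each library left out in turn were alternatives. The edgeR step was tested on simulated counts. Limits that a count of 0 allows use 3 counts and cover counting error only.

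All members are named. From each other cell cycle list, up to 4 genes were named by the ratio of cluster 3 to 5 in either direction and up to 4 by the smallest p between the sexes, along with the 10 genes most correlated with the summed members. The members and lists were chosen with earlier results of these data known.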

Additional observations from a re-analysis of the deposited data

How the results depend on the processing

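Of 317 alternative values of 26 results, 265 stayed within the limits used. For the sex differences of the shares of cells, the limit was a change of sign alone, whatever the size. For the ratios and shares by cluster it was the SD over libraries, which leaving out a single library could not pass. The count of 265 is therefore no measure of how steady these results were. The log2 ratio of the summed members of cluster 3 to 5 was 1.72, and it was 2.11 as UMIs per cell, 2.09 without Hmgb2 and 2.35 as a mean over members (the last 2 settings were chosen after seeing the data). Against the rest, cluster 3 moved from 3.63 to 5.35, 4.08 and 4.91, and cluster 5 from 1.91 to 3.24 as UMIs per cell and 2.57 as a mean over members. Leaving out each library gave 1.69 to 1.76, 3.59 to 3.64 and 1.86 to 1.94. The share of cells with at least 5 members in cluster 3 was 67.4% and 99.2% with cells thinned to 1000 and 5000 UMIs, 100% without thinning, 98.5% and 68.4% with 3 and 8 members required, and 84.4% without Hmgb2. In cluster 5 these were 8.96%, 51.1%, 85.5%, 51.5%, 8.43% and 17.3%. Leaving out each library gave 89.3% to 90.6% and 23.0% to 24.4%. The sex difference of these shares, in percentage points, changed sign in cluster 3 (0.0757) to -0.468 at 1000 UMIs and -0.869 without Hmgb2. In cluster 5 (-1.44) it changed to 0.251 at 1000 UMIs, 0.201 and 1.37 with 3 and 8 members required and 0.894 without Hmgb2, and outside clusters 2, 3 and 5 (-0.745) to 0.406 at 5000 UMIs. Leaving out each library gave -4.27 to -3.04 over all CD8 T cells, -1.37 to 1.76 in cluster 3, -2.92 to 0.186 in cluster 5 and -1.0 to -0.380 outside. The cause was not tested.

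Members called between the sexes stayed at 0 in 73 of 74 alternative counts, 1 being called in thinned cells, and at 0 to 0 without each library. Genes called over all CD8 T cells were 11, and 121 by DESeq2 and 53 in thinned cells, in cluster 3 they were 15, and 30 by DESeq2 and 27 without a filter, and in cluster 5 they were 10, and 16 and 22. In both together they were 12 and 29 by DESeq2, outside them 11, and 140 by DESeq2, 25 without a filter and 61 in thinned cells, and for the interaction 6 and 2 by DESeq2. Without each library these counts ran from 9 to 16, 10 to 30, 8 to 24, 8 to 21, 9 to 18 and 3 to 11. Counts moved by over 1.5 times without male library 3 in cluster 3 (30), in cluster 5 (24), in both (21) and for the interaction (11), without female library 2 in cluster 5 (19), without female library 6 outside (18) and without male library 1 for the interaction (3). The members' median log2 difference went from -0.21 to -0.029 once libraries were drawn to an equal cluster mix. Without each library it ran from -0.28 to -0.14 over all CD8 T cells, -0.14 to -0.02 in cluster 3, -0.07 to 0.05 in cluster 5, -0.15 to -0.06 in both and -0.04 to 0.15 outside. No paired analysis was possible because the library numbers could not be tied to the labels' replicate numbers.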

Other observations

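The 5 genes whose log2 CPM ran most opposite to the summed members across the 66 sums of clusters and libraries were Kdm5b (r = -0.855), a histone demethylase, Tcp11l2 (-0.838), Btg1 (-0.814), an antiproliferative gene, Ccnd2 (-0.785) and Gimap6 (-0.780), a GTPase of lymphocytes. These genes were chosen after their values were seen, and the correlations are a description of sums that share libraries.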
